A study of Neogale vison with 6 samples.

Results

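The genes described here encode the proteins of the cytosolic ribosome. They were the rows of the count table whose gene symbol has the form of a ribosomal protein. That is RPL and a number or RPLP0 to RPLP2 for the large subunit, and RPS and a number or RPSA for the small subunit. The RPS6K kinases were left out. The rule found 35 of the 24526 genes in the table. Of these, 19 encode proteins of the large subunit, 11 encode proteins of the small subunit and 5 encode paralogs (RPL3L, RPL7L1, RPL10L, RPL26L1 and RPS27L). The 30 that are not paralogs stand for 30 of the 80 ribosomal proteins in a list of the human ribosome, so many of the others, RPLP0, RPL5 and RPSA among them, carry no such symbol in the mink table and were not analysed under these names. Mv1Lu, an epithelial line derived from mink lung, was sequenced as 3 libraries of untreated cells (control) and 3 libraries of cells under cholesterol depletion (CD). The CD cells were kept for 16 h in medium in which 10% lipoprotein-deficient serum replaced lipoprotein-containing serum, with 50 μM lovastatin, a statin that blocks cholesterol synthesis, and 50 μM mevalonate, an early precursor of that pathway. The serum, the statin and mevalonate changed together between the groups, so their parts cannot be told apart, and the line is 1 cell line with no other to set beside it. Nothing in the labels says that the libraries of a group came from separate cultures, so the p-values measure the spread between these libraries, which may be technical.

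Each ribosome is built from a small subunit, which decodes the mRNA, and a large subunit, which joins amino acids. The ribosomal proteins are made in near-equal amounts and are among the most abundant proteins of a growing cell. Their mRNAs begin with a terminal oligopyrimidine (TOP) tract, through which the kinase mTOR and the binding protein LARP1 regulate their translation and stability, and the transcription factor MYC is a known activator of many of their genes. Ribosomal proteins that are not built into a ribosome are degraded, and some of them bind the ubiquitin ligase MDM2.

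The libraries held 13473820 to 18633764 reads assigned to genes. Replicates of a group differed beyond sampling noise in all pairs, with a chi-square of 9.23 to 72.4 per degree of freedom, so no library was counted as a copy of another. HMGCS1, a sterol-regulated gene of cholesterol synthesis, had 112, 135 and 142 CPM (reads scaled by TMM to one common library size) in control replicates 1 to 3 and 1638, 1413 and 1159 CPM in CD replicates 1 to 3. Every CD library was thus far above every control for this gene. Of 4 epithelial markers in the table, KRT19 had 883 to 1011 CPM in control and 379 to 533 CPM in CD (−1.03, edgeR FDR 2.74e-04), TJP1 had 196 to 206 CPM in control and 124 to 191 CPM in CD (FDR 0.122), and CDH1 and EPCAM were at 0 to 0.432 CPM in the 6 libraries. All 4 tested of 5 fibroblast markers were lower in CD (COL3A1 −1.72, PDGFRB −1.08, COL1A1 −0.93 and COL1A2 −0.37 in log2 units, FDR 2.5e-05 to 0.0403), with a summed level of 306 to 384 CPM in control and 180 to 228 CPM in CD. Endothelial markers summed to 0.0723 to 0.220 CPM in control and 1.17 to 1.96 CPM in CD, mostly VWF, and immune markers to at most 0.0720 CPM. The part of these cell markers in the results on ribosomal protein genes was not tested. CD replicate 3 stood apart from the other CD libraries in several measures. HMGCS1 was lowest in it among the CD libraries. It had 9.37% unmapped reads and 9.74 multimapping reads for every 100 gene reads, against 3.54% and 4.33% unmapped and 7.09 and 7.28 multimapping in CD replicates 1 and 2. The control libraries spanned 4.25% to 18.4% unmapped and 6.90 to 9.11 multimapping. The part that its read composition has in any result was not tested.

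Few ribosomal protein genes passed the test between CD and control. Of the 35 genes, 33 had enough reads to be tested, and of these 1 was higher (RPL31), 2 were lower (RPL3L and RPL7L1) and 30 passed in neither direction at a false discovery rate (FDR) of 0.05 by edgeR's quasi-likelihood test. Over all 12148 genes tested, 24.8% were called higher and 22.9% were called lower, so a smaller share of the ribosomal protein genes than of all genes was called in each direction. The control and CD libraries did not overlap for the same 3 genes, 1 higher and 2 lower, against 29.5% of all genes higher and 28.6% lower. The median log2 fold change of the 33 was 0.15, beside 0.057 for all genes, and 25 of the 33 were above 0. The 19 tested genes of the large subunit had a median of 0.17 (−0.17 to 0.51) and the 10 of the small subunit a median of 0.15 (0.043 to 0.26). Ribosomal protein genes have many near-identical processed copies in mammalian genomes. The count table holds multimapping and ambiguous reads in rows of their own, apart from the genes. The sources used here do not give the rules that set such reads apart, or say how reads from the antisense strand were counted. The counts of these genes are uncertain to that extent. Levels are not compared between genes, as the table gives no gene lengths. The level of a gene here is its share of the RNA of a library, and in such bulk samples fewer cells of a type and less RNA per cell cannot be told apart.

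The median hid a split among the CD libraries. For each gene, the log2 CPM of a library minus the mean log2 CPM of the control libraries was taken as its shift. The median shift of the 33 genes was −0.15 in CD replicate 1, −0.062 in CD replicate 2 and 0.51 in CD replicate 3, while the control libraries lay between −0.045 and 0.077. The median shift of all genes was 0.072, 0.013 and 0.0041 in the same CD libraries. Thus CD replicates 1 and 2 were slightly under the control level and CD replicate 3 was above it.

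**Figure D1:**
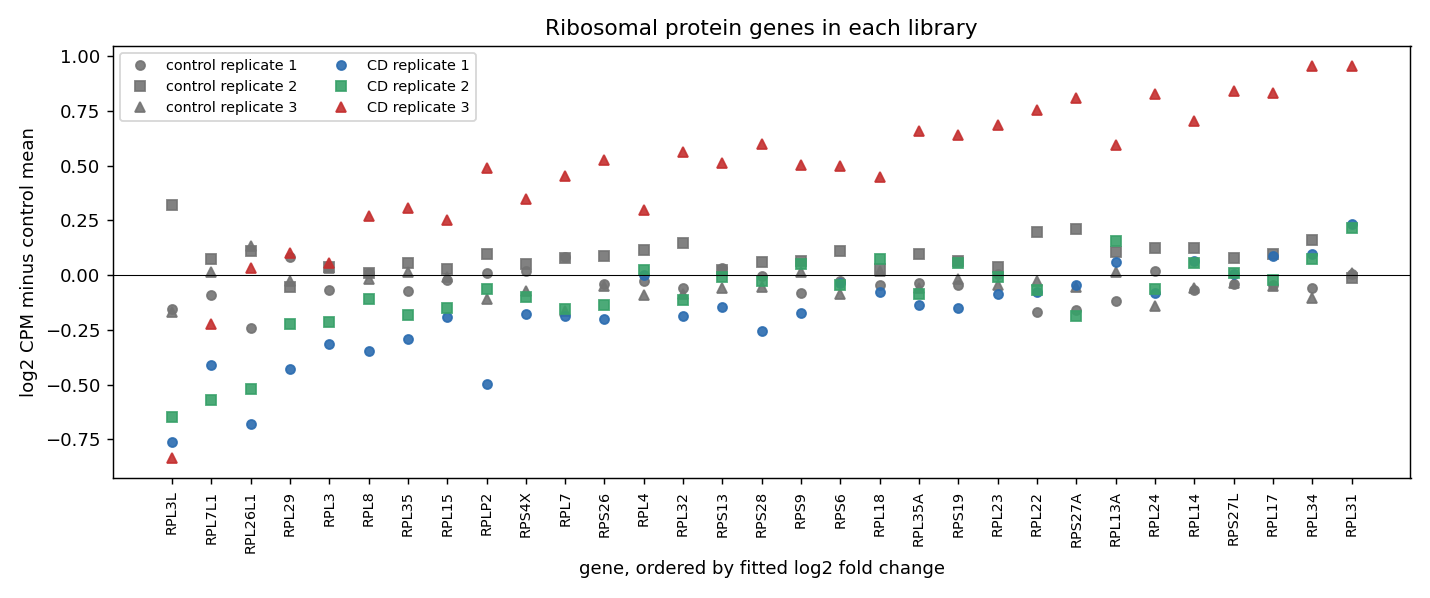
Log2 CPM of 31 of the 33 tested ribosomal protein genes in each library, minus the mean of the control libraries (y axis), with genes ordered by their fitted log2 fold change (x axis); grey points are control libraries and colours are CD libraries. CD replicate 3 lies above every control library for all genes shown except RPL3L, RPL7L1 and RPL26L1, while CD replicates 1 and 2 lie near or under the controls for most.

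In CD replicate 3, 30 of the 33 genes were above every control library and 2 were below every control library (RPL3L and RPL7L1), where 43.4% of all genes tested were above and 43.6% below. The remaining gene, RPL26L1, lay among the controls. In CD replicate 1 the picture was the opposite, with 1 gene above every control (RPL31) and 22 below, against 46.6% and 39.8% of all genes. In CD replicate 2, 3 genes were above and 14 below every control, against 42.4% and 40.9%. CD replicate 3 had the highest level of the CD libraries for 32 of the 33 genes, against 40.1% of all genes, with RPL3L as the exception.

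Most of these genes were higher in CD replicate 3 by a similar amount. The median excess of CD replicate 3 over the mean of CD replicates 1 and 2 was 0.63 in log2 units, with quartiles at 0.49 and 0.74. Over all genes the same difference had a median of −0.0013 with quartiles at −0.37 and 0.29. It was over 0.3 for 90.9% of the ribosomal protein genes and for 24.0% of all genes. The replicate error of these genes was uneven between the groups: the SD of log2 CPM had a median of 0.078 in control and 0.36 in CD, beside 0.13 and 0.24 for all genes. For 32 of the 33 genes the SD was larger in CD than in control.

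As a share of all gene reads, the 35 genes took 2.504%, 2.79% and 2.495% in the control libraries and 2.42%, 2.53% and 3.44% in CD replicates 1 to 3. The groups overlap, and CD replicate 3 was the highest of the 6. The large subunit genes took 1.69%, 1.87% and 1.67% in control and 1.61%, 1.68% and 2.25% in CD. The small subunit genes took 0.786%, 0.887% and 0.794% in control and 0.775%, 0.817% and 1.15% in CD. The summed reads of the large subunit were divided by those of the small subunit. The ratio was 2.15, 2.11 and 2.10 in control and 2.08, 2.06 and 1.96 in CD. It was lower in each CD library than in each control library and lowest in CD replicate 3. This difference was not tested. Genes with many reads weigh most in such sums, and only the genes found by the rule enter them. Taken gene by gene, the subunits lay close together, at medians of 0.17 (large) and 0.15 (small) in log2 units over the 6 libraries. A shift between the subunits was therefore not shown.

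**Figure D2:**
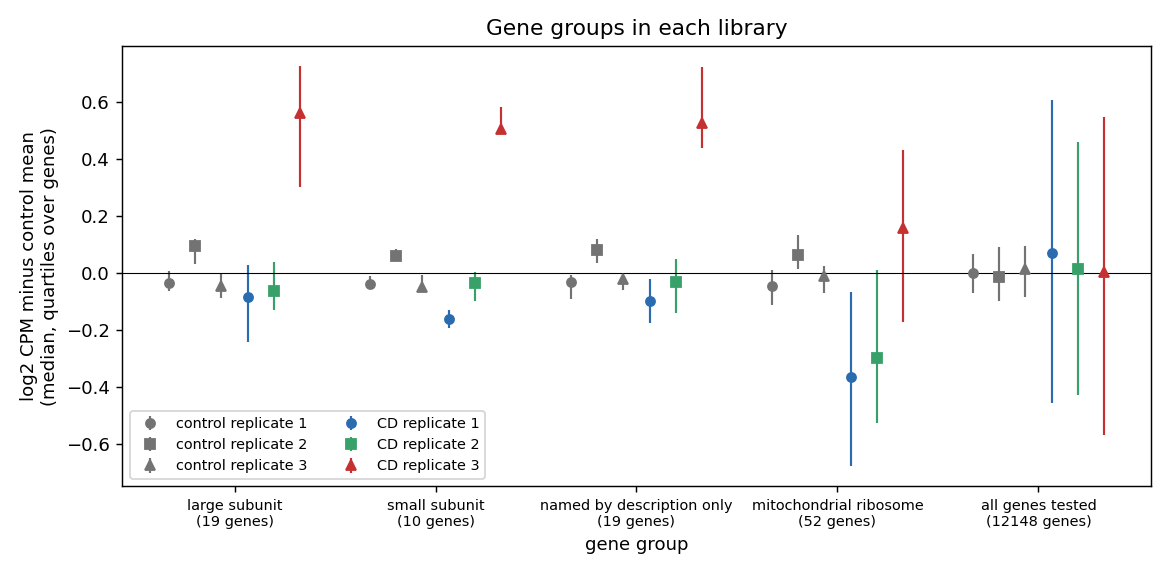
Median log2 CPM minus the control mean of each gene group in each library, with bars from the lower to the upper quartile over genes (y axis), for the large subunit, the small subunit, the rows named as ribosomal proteins by description only, the mitochondrial ribosome and all genes tested (x axis). CD replicate 3 is the highest library for each of the 4 ribosomal groups, and the medians of all genes stay near 0.

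Without CD replicate 3, the direction of most of these genes turned. In a fit of CD replicates 1 and 2 against the 3 controls, 34 of the 35 genes were tested, and 0 were called higher and 6 lower. The background of that fit was 29.3% of 12330 genes higher and 29.2% lower. The median log2 fold change of the 33 genes was then −0.15, with 29 below 0 and 4 above, where all genes together had 0.016. The 6 genes were RPL7L1 (−0.53, edgeR FDR 7.75e-05), RPL29 (−0.36, FDR 0.00768), RPL26L1 (−0.67, FDR 0.0194), RPL3 (−0.30, FDR 0.0348), RPL35 (−0.27, FDR 0.0372) and RPLP2 (−0.30, FDR 0.0464). All 6 were called from a CD group of 2 libraries, and 0 of the small subunit genes were among them. The tendency of the 33 genes to lie above 0 in the fit of all 6 libraries therefore rested on CD replicate 3.

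**Figure D3:**
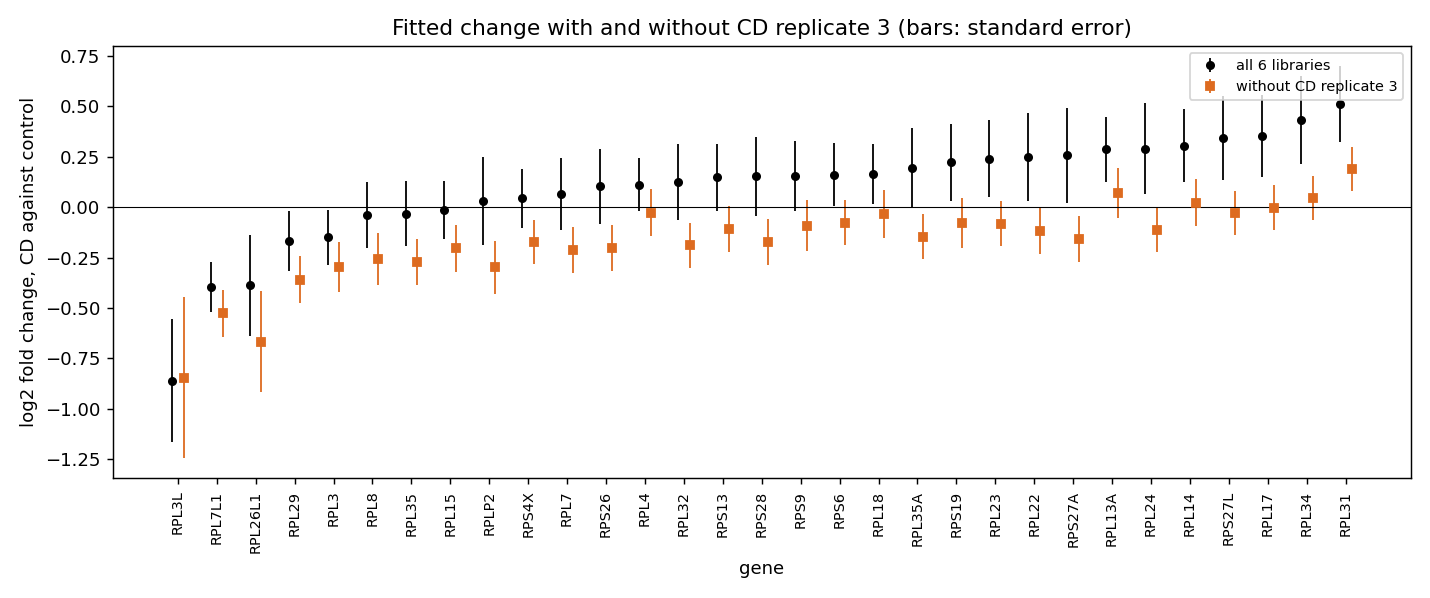
Fitted change between CD and control in log2 units, with bars of 1 standard error (y axis), for 31 of the 33 genes (x axis), over all 6 libraries (black) and without CD replicate 3 (orange). All of the genes shown except RPL3L have a lower value without that library, and the median of all 33 moves from 0.15 to −0.15.

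RPL31, a protein at the rim of the exit of the peptide tunnel, was called higher. No other large subunit gene found by the rule was called in either direction. The row described as L26, given further below, had a similar log2 fold change of 0.53 and missed the threshold (edgeR FDR 0.0507). RPL31 (ENSNVIG00000020669) had 302, 298 and 303 CPM in the control libraries and 354, 350 and 585 CPM in CD replicates 1 to 3. Every CD library was above every control, and the controls lay within 0.023 of each other on the log2 scale. The log2 fold change was 0.51 ± 0.19 (SE, n = 3 libraries a group, edgeR FDR 0.0464), or 1.43-fold. Without CD replicate 3 it was 0.19 with an FDR of 0.128, so the call was lost. The call was also lost without control replicate 1 (FDR 0.114), 2 (FDR 0.124) or 3 (FDR 0.123), although the fold change then stayed between 0.50 and 0.51.

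Of the genes found by the rule, RPL17, RPL4 and RPL35 of the tunnel and its exit did not pass the test. RPL17, which lines the tunnel, had 225, 249 and 225 CPM in control and 247, 229 and 414 CPM in CD (0.35, FDR 0.180). RPL4, which reaches into the tunnel from the other side, had 1014, 1118 and 970 CPM in control and 1032, 1048 and 1271 CPM in CD (0.11, FDR 0.508). RPL35, another protein of the exit, had 757, 826 and 804 CPM in control and 649, 701 and 984 CPM in CD (−0.033, FDR 0.881). For each of these 3 the control and CD libraries overlapped, with CD replicate 3 at the top.

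RPL29, RPL3 and RPL8 had the lowest fold changes among the subunit proteins, and none of them passed the test over all 6 libraries. RPL3, which reaches towards the peptidyl transferase centre, had 1992, 2139 and 2132 CPM in control and 1679, 1801 and 2168 CPM in CD, a log2 fold change of −0.15 ± 0.14 (SE, edgeR FDR 0.389). RPL8, another protein of that centre, had 2786, 2787 and 2734 CPM in control and 2175, 2565 and 3336 CPM in CD (−0.041, FDR 0.855). RPL29 had 1043, 949 and 966 CPM in control and 732, 843 and 1058 CPM in CD (−0.17, FDR 0.375). In all 3, CD replicates 1 and 2 were below every control and CD replicate 3 was above every control, by little in RPL3 and RPL29.

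RPL34 and RPL24 belonged to the genes with the widest spread among the CD libraries. RPL34 had 144, 167 and 139 CPM in control and 160, 158 and 290 CPM in CD, a log2 fold change of 0.43 ± 0.22 (SE, FDR 0.132). It was called higher in 1 of the alternatives, the fit without CD replicate 1 (0.59, FDR 0.0493). Without CD replicate 3 its log2 value was 0.045 (FDR 0.751). RPL24, which forms a bridge to the small subunit, had 257, 276 and 230 CPM in control and 240, 243 and 449 CPM in CD (0.29, FDR 0.314). In these genes CD replicates 1 and 2 lay inside the control range and CD replicate 3 lay far above it.

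The stalk of the large subunit recruits the translation factors that hydrolyse GTP. Of its proteins, RPLP2 was in the table by symbol, with 1933, 2052 and 1777 CPM in control and 1359, 1838 and 2695 CPM in CD (0.032 ± 0.22 SE, FDR 0.915). CD replicate 1 was the lowest and CD replicate 3 the highest of the 6 libraries, a range of 0.99 on the log2 scale among the CD libraries. The remaining 9 genes of the large subunit (RPL7, RPL13A, RPL14, RPL15, RPL18, RPL22, RPL23, RPL32 and RPL35A) had log2 fold changes of −0.014 to 0.30, and none passed. RPL14, at the top of this range, was at 0.021 without CD replicate 3.

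The 10 tested genes of the small subunit were more alike. All 10 had a fold change above 0 over the 6 libraries, 0 passed the test by edgeR, DESeq2 or limma-voom, also at an unadjusted p of 0.05, and all 10 were above every control in CD replicate 3 and below the control mean in CD replicate 1. RPS6, the protein phosphorylated by the S6 kinases, had 346, 379 and 332 CPM in control and 343, 341 and 497 CPM in CD (0.16 ± 0.16 SE, edgeR FDR 0.425). RPS19, which is needed to mature the RNA of the small subunit and is mutated in Diamond-Blackfan anaemia, had 1399, 1509 and 1428 CPM in control and 1301, 1503 and 2254 CPM in CD (0.22, FDR 0.363). In both genes the first and second CD libraries lay within or below the control range.

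RPS27A is made as a fusion with ubiquitin, so its mRNA supplies both proteins. It had the widest range of the CD libraries, 0.995 on the log2 scale, with 235, 303 and 253 CPM in control and 254, 231 and 460 CPM in CD (0.26 ± 0.24 SE, FDR 0.398). RPS28, a protein near the exit of the mRNA channel, had 568, 594 and 549 CPM in control and 478, 559 and 864 CPM in CD (0.15, FDR 0.554). RPS26, another protein of that exit, had 750, 820 and 745 CPM in control and 672, 702 and 1111 CPM in CD (0.10, FDR 0.677). RPS4X, RPS9 and RPS13 of this subunit had log2 fold changes of 0.043 to 0.16. RPS23, a protein of the decoding centre, was below the count filter, with 14, 7 and 17 reads in control and 10, 10 and 5 reads in CD. That row therefore holds few reads for a protein that each ribosome contains.

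Among the paralogs, both calls were lower. RPL7L1 (ENSNVIG00000012232), a nucleolar relative of RPL7 that takes part in assembly of the large subunit, had 81.1, 91.0 and 87.2 CPM in control and 64.9, 58.1 and 74.1 CPM in CD. Every CD library was below every control, and the log2 fold change was −0.40 ± 0.13 (SE, edgeR FDR 0.0254). The call was lost without control replicate 1 (FDR 0.0553), 2 (FDR 0.0944) or 3 (FDR 0.0833) and without CD replicate 2 (FDR 0.0898), while without CD replicate 3 it was stronger (−0.53). RPL3L (ENSNVIG00000022110), a relative of RPL3 made mainly in striated muscle, had 14, 20 and 18 reads in control and 10, 11 and 8 reads in CD, or 1.003, 1.45 and 0.992 CPM against 0.615, 0.675 and 0.576 CPM. Its log2 fold change of −0.86 ± 0.30 (SE, FDR 0.0401) rests on these few reads, and DESeq2 gave it an adjusted p of 0.196. RPL3L was not called when any single library was left out, with an FDR of 0.0636 without CD replicate 3 and 0.143 without control replicate 2.

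The other paralogs passed in neither direction. RPL26L1, which is close to RPL26 in sequence, had 3.37, 4.34 and 4.41 CPM in control and 2.46, 2.76 and 4.11 CPM in CD (−0.39, FDR 0.225). RPS27L, a relative of RPS27 whose gene is a target of p53, had 227, 247 and 228 CPM in control and 235, 235 and 419 CPM in CD (0.34 ± 0.21 SE, FDR 0.201). RPL10L, a relative of RPL10 made mainly in testis, had 4, 1 and 5 reads in control and 2, 4 and 3 reads in CD and was not tested. Among the CD libraries, CD replicate 3 was thus the highest for RPS27L, RPL26L1 and RPL7L1 and the lowest for RPL3L.

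The raw read ratio of a paralog to its parent gene within a library is not moved by the scaling of that library. The ratios here are differences of log2 CPM with a prior count of 2. That prior shrinks them for rows with few reads, such as RPL3L. The log2 ratio of RPL7L1 to RPL7 was −2.52, −2.34 and −2.17 in control and −2.57, −2.76 and −3.02 in CD, a difference of −0.44. The log2 ratio of RPL3L to RPL3 was −10.78, −10.41 and −10.89 in control and −11.14, −11.13 and −11.58 in CD, a difference of −0.59. For RPL26L1 against the row described as ribosomal protein L26, it was −6.48, −6.28 and −6.00 in control and −7.19, −6.99 and −7.21 in CD, a difference of −0.87. In all 3 pairs every CD library was below every control. The exact permutation test, two-sided, gave p = 0.1 for each, which is the smallest that 3 against 3 libraries allow and is also the value after Benjamini-Hochberg adjustment over the 3 pairs. RPL7L1 and RPL26L1 were thus lower against their parents in each CD library, CD replicate 3 included. The level of RPL26L1 itself overlapped with the controls, while the L26 row was above every control in each CD library (0.53, edgeR FDR 0.0507). The lower ratio is therefore not a lower level of RPL26L1 alone.

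To compare the genes with each other and not with the rest of the RNA, each library was next expressed relative to its own median over the 29 tested genes of the subunits. That median was −0.032, 0.037 and −0.0047 in the control libraries and −0.22, −0.093 and 0.38 in the CD libraries on the log2 scale. After it was taken off, the range of a subunit gene among the CD libraries had a median of 0.19. In the 33 genes, the groups did not overlap for 11 on the higher side and 6 on the lower side, and overlapped for 16. Over all genes on the same scale, 23.9% did not overlap on the higher side and 26.0% on the lower side, and the reference itself is made of these genes.

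RPL31 stood highest on this scale in all 3 CD libraries, at 0.45, 0.31 and 0.58 above the control mean. RPL34 (0.35), RPL17 (0.28), RPS27L (0.26), RPL14 (0.25) and RPL13A (0.25) followed as differences of the group means. RPL3L (−0.77), RPL7L1 (−0.42), RPL26L1 (−0.41), RPL29 (−0.21), RPL3 (−0.18) and RPL35 (−0.080) were lower. In the edgeR fit scaled to that median, RPL31 was the one gene called, higher by 0.45 with an FDR of 0.0280, where 16.0% of all genes were called higher and 15.7% lower. RPL7L1 (−0.42, FDR 0.0772) and RPL3L (FDR 0.0782) were not called in it. This scaling was chosen after CD replicate 3 was seen to stand apart.

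**Figure D4:**
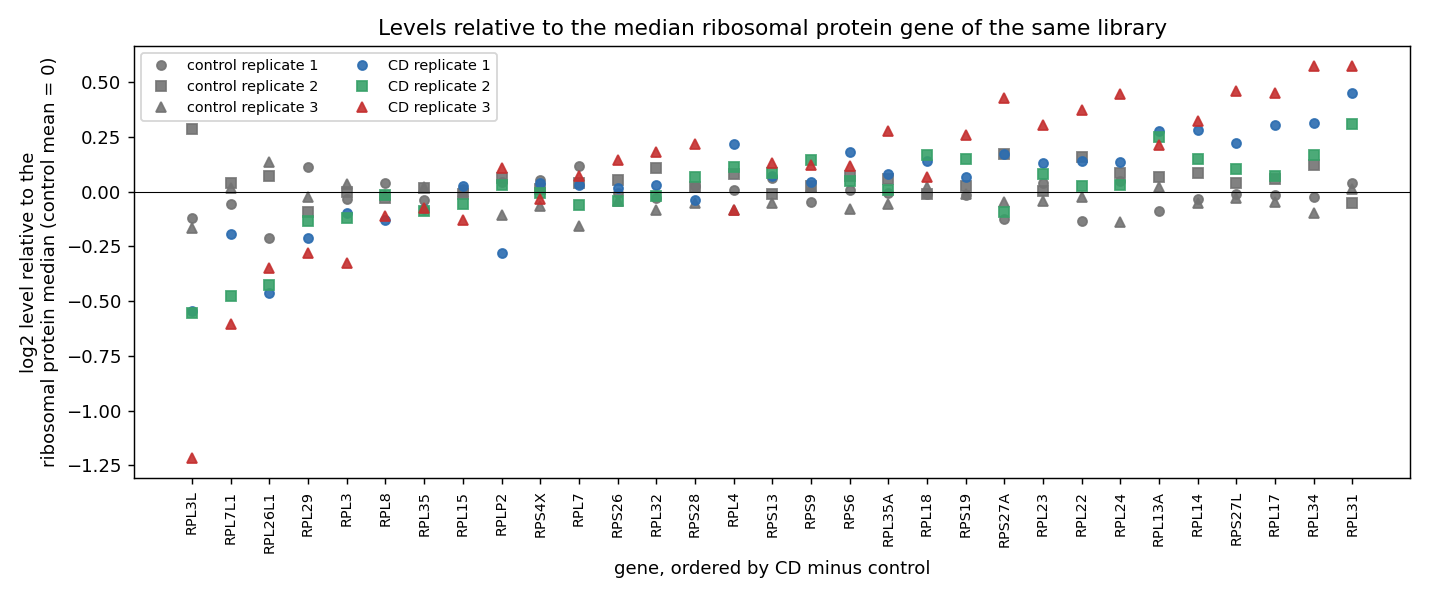
Log2 level of 31 of the 33 genes in each library relative to the median ribosomal protein gene of the same library, with the control mean set to 0 (y axis), ordered by the difference of CD and control (x axis). The CD libraries come closer together than in the plot by library, and RPL31 lies highest and RPL3L lowest.

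Another 19 rows carry no ribosomal protein symbol of the rule but a description that names a cytosolic ribosomal protein, among them L11, which binds MDM2, L12 and P1 of the stalk base and stalk, and S3, S18 and S20 of the small subunit. They were picked after the values were seen, and CD replicate 3 was again the highest library. None of the 19 passed the test by edgeR, where 0 were higher and 0 lower against 24.8% and 22.9% of all genes, and their median log2 fold change was 0.19 (−0.090 for L36 to 0.53 for L26, FDR 0.0507). L26 had 313, 348 and 289 CPM in control and 377, 367 and 626 CPM in CD, with every CD library above every control. Of the 19 rows, 1 did not overlap on the higher side and 0 on the lower side, against 29.5% and 28.6% of all genes. At an FDR of 0.05, DESeq2 called 1 higher and limma-voom called 0. At an unadjusted p of 0.05, 1 was higher and 0 lower by each of the 3 tools. Their median shift was −0.099 in CD replicate 1, −0.030 in CD replicate 2 and 0.53 in CD replicate 3. CD replicate 3 was above all 5 other libraries in 19 of 19, against 25.0% of all genes. Without it, 0 of the 19 were higher and 4 lower, where 29.3% of all genes were higher and 29.2% lower, and their median was −0.079.

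The ribosomal proteins of the mitochondria, which form a separate ribosome, had their median on the lower side. Of 52 tested, 15 were lower and 2 higher, where 22.9% of all genes were lower and 24.8% higher, and their median fold change was −0.18 in log2 units. The median shift was −0.37, −0.30 and 0.16 in CD replicates 1 to 3. CD replicate 3 was the highest CD library for 51 of the 52, and exceeded the mean of the other CD libraries by a median of 0.46. The step between CD replicate 3 and the others was therefore present in both kinds of ribosomal protein, while 15 mitochondrial genes and 2 cytosolic ones, RPL3L and RPL7L1, were called lower. Without CD replicate 3, 1 mitochondrial gene was higher and 28 were lower, with a median of −0.36, where 29.3% of all genes were higher and 29.2% lower. Without control replicate 1, control replicate 2 or CD replicate 2, 9 were lower, and without control replicate 3, 8 were lower, where 17.8% to 20.6% of all genes were. The difference between the 2 kinds was not tested.

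Genes near the ribosomal proteins in function were taken from lists of named genes. Of the partners with a ribosomal protein part, 3 of 4 were tested and 1 was higher, where 24.8% of all genes were higher. RPL36AL, which encodes a near-identical form of RPL36A, had 37.2, 40.5 and 34.4 CPM in control and 57.2, 54.2 and 102 CPM in CD (0.93 ± 0.23 SE, edgeR FDR 0.00716), with the limit that reads of the 2 forms may be split. Its CD libraries were all above the controls, and it was called in all 16 of the alternatives, while leaving out CD replicate 3 brought its log2 fold change to 0.54. The ubiquitin-like fusion FAU (0.016) was not called.

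Other TOP mRNAs, which share the tract at the start of the ribosomal protein mRNAs, gave 1 higher and 1 lower of 11 tested, with a median of 0.029, where 24.8% of all genes were higher and 22.9% lower. TPT1, which encodes the tumour protein TCTP, had 1084, 1255 and 1105 CPM in control and 1703, 1628 and 2488 CPM in CD (0.76, FDR 0.00523), and was called in all 16 alternatives, with 0.500 without CD replicate 3. PABPC4, a poly(A)-binding protein, fell by 0.55 on the log2 scale (FDR 0.00146). TPT1 thus shows the excess of CD replicate 3 on top of an increase that is present in all 3 CD libraries. Without that library 1 of these mRNAs was higher and 4 were lower, with a median of −0.12, and 29.3% of all genes were higher and 29.2% lower.

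The escorts that carry ribosomal proteins to the nucleus or to the assembling ribosome had a median of −0.25 over 10 tested genes. Of the 10, 4 were called lower and 0 higher, where 22.9% of all genes were lower and 24.8% higher. IPO4, an importin, had 245, 237 and 263 CPM in control and 107, 117 and 113 CPM in CD (−1.15, FDR 2e-05). GRWD1, a chaperone of RPL3, had 155, 163 and 175 CPM in control and 75.6, 92.3 and 88.8 CPM in CD (−0.94, FDR 1.49e-04). IPO5 (−0.58, FDR 0.00727) and RRS1, which brings the smallest ribosomal RNA of the large subunit to its place (−0.36, FDR 0.0285), were the others. For IPO4, GRWD1 and RRS1 the 3 CD libraries lay close together, with no excess in CD replicate 3. Without that library the list again gave 0 higher and 4 lower, against 29.3% and 29.2% of all genes. RRS1 was not called when any library other than CD replicate 3 was left out (FDR 0.0521 to 0.124).

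Of 14 tested regulators of TOP mRNAs and ribosomal protein genes, 2 were higher and 4 lower, with a median of −0.27, and the shares of all genes were 24.8% higher and 22.9% lower. MYC had 21.6, 21.5 and 20.9 CPM in control and 41.4, 42.8 and 41.1 CPM in CD (0.97, FDR 1.43e-04), and TBPL1, a factor of TOP promoters, was higher by 1.18 (FDR 5.36e-04). MTOR had 172, 164 and 185 CPM in control and 141, 120 and 59.1 CPM in CD (−0.70, FDR 0.0448). LARP1 had 245, 220 and 258 CPM in control and 205, 184 and 122 CPM in CD (−0.50, FDR 0.0409). RPTOR, the mTOR partner (−0.87, FDR 0.00825), and CNBP (−0.37, FDR 0.0334), a TOP-binding protein that was not called when any 1 of the controls was left out or without CD replicate 2 (FDR 0.0581 to 0.138), were also lower. MTOR, LARP1 and RPTOR were lowest in CD replicate 3, the library in which the ribosomal protein mRNAs were highest, and whether these are related was not tested. Without that library MTOR (−0.45), LARP1 (−0.34) and RPTOR (−0.68) were still called lower, and the list gave 2 higher and 5 lower, against 29.3% and 29.2% of all genes, with a median of −0.029. With any 1 control left out it gave 2 higher and 1 lower, without CD replicate 2 it gave 2 and 2, and without CD replicate 1 it gave 2 and 6. MTOR and LARP1 were not called when any 1 of the control libraries was left out (FDR 0.0640 to 0.137), nor was MTOR without CD replicate 2 (FDR 0.0528). Of 9 genes that act in the quality control of ribosomes, 2 were higher and 2 lower, with a median of −0.20, against the same shares of all genes. MDM2, the ubiquitin ligase to which free ribosomal proteins bind, had 47.7, 56.6 and 43.1 CPM in control and 109, 77.4 and 109 CPM in CD (1.01, FDR 7.56e-04). RNF14 was higher by 0.56 (FDR 0.00855) but not called without control replicate 1 (FDR 0.0522) or control replicate 3, and USP10 (−0.75, FDR 0.00106) and HUWE1 (−0.60, FDR 0.0461) were lower. HUWE1 was not called when any 1 of the controls was left out or without CD replicate 2 (FDR 0.0669 to 0.120). Without CD replicate 3 the log2 fold change of HUWE1 was −0.39, and 2 of the 9 genes were higher and 3 lower, against 29.3% and 29.2% of all genes. Without control replicate 1 or 3, 1 was higher and 1 lower, and without control replicate 2 or CD replicate 2, 2 were higher and 1 lower.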

How the data were processed

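Poly(A) RNA of Mv1Lu cells was sequenced as 3 control and 3 CD libraries made with the Nextera XT kit. According to the submitters' processing notes and the methods, the authors trimmed reads with fastp 0.20.1, aligned them with STAR 2.7.2a to a mink assembly and used DESeq2 1.30.1 in R 4.0.3. The program that assigned reads to genes, and whether it used the strand, are not given in the sources used here. The authors deposited raw counts per gene for the 6 libraries, 13473820 to 18633764 gene reads each. The rows of the table that name no gene held 29.3% to 47.2% of the reads and were left out. The deposited normalized files were not used, since their identifiers follow another order than their values.

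The counts were tested with edgeR 4.0.16 in R 4.3.3 (filterByExpr with a minimum count of 10 and a minimum total of 15, TMM, robust quasi-likelihood fit, condition as the only term), which left 12148 genes. FDR is the Benjamini-Hochberg value over all of them, with a threshold of 0.05. CPM are TMM-scaled, log2 CPM use a prior count of 2, and SE is the log2 fold change divided by the root of F. Ratios were tested by an exact two-sided permutation test. The edgeR fit was tested on simulated data with the same dispersion for all genes and no library set apart. The ratios, the permutation test and the scaling to the ribosomal protein median were not tested in this way. The members and gene lists were chosen with earlier results of these data known. Genes named with values were the called members, the 5 with the widest range among the CD libraries, the paralogs, the stalk proteins, the ubiquitin fusions, RPS6, members whose call depended on a setting, members below the filter and called genes of the context lists. RPL4, RPL8, RPL13A, RPL14, RPL17, RPS19 and RPS26 were named after their values were seen. The values of some genes are not reported here by name. Replicate numbers did not pair the libraries. The alternatives were DESeq2 1.42.0, limma-voom (limma 3.58.1), other scalings, other filters, a replicate block, an FDR of 0.01 and leaving out each library.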

Additional observations from a re-analysis of the deposited data

How the results depend on the processing

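The count of 1 ribosomal protein gene called higher became 0 with limma-voom, with DESeq2 size factors and at an FDR of 0.01, and lay between 0 and 2 when each library was left out in turn (0 without any 1 control or without CD replicate 3). The count of 2 called lower became 1 with DESeq2, without a count filter, with a minimum of 50 counts and with the replicate block, and 0 when scaled to the ribosomal protein median or at an FDR of 0.01, and lay between 0 and 6 with a library left out (6 without CD replicate 3). Over all genes, 1945 were higher with the scaling to the ribosomal protein median and 2006 at an FDR of 0.01, against 3016. Over single genes, RPL31 was called in 10 of 16 alternatives, RPL7L1 in 11 of 16 and RPL3L in 5 of 15. The cause was not tested, except that a stricter threshold leaves fewer calls by construction. Replicate numbers shared only a number, with correlations of −0.024, −0.329 and −0.185 between same-numbered libraries. With the replicate block, 1 ribosomal protein gene was higher and 1 lower, the median was 0.11, and 2772 genes were higher and 2636 lower over all genes.

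The median log2 fold change of the ribosomal protein genes was −0.15 without CD replicate 3, 0.27 at the highest with another library left out, and above 0 in every other setting. RPLP2 turned to −0.021 with limma-voom, −0.024 with the replicate block and −0.038 with the scaling to the ribosomal protein median, and RPL15 to 0.018 with the upper quartile. For 22 of the genes reported here the sign turned with 1 library left out. The lowest and highest values were −0.0026 and 0.48 for RPL17, −0.12 and 0.40 for RPL22, −0.11 and 0.29 for RPS13, −0.083 and 0.39 for RPL23, −0.27 and 0.094 for RPL35 and −0.077 and 0.26 for RPS6. They were −0.028 and 0.18 for RPL4, −0.028 and 0.50 for RPS27L, −0.034 and 0.28 for RPL18, −0.21 and 0.19 for RPL7 and −0.17 and 0.33 for RPS28. They were −0.20 and 0.24 for RPS26, −0.30 and 0.25 for RPLP2, −0.19 and 0.27 for RPL32, −0.15 and 0.35 for RPL35A and −0.11 and 0.46 for RPL24. They were −0.21 and 0.078 for RPL15, −0.16 and 0.41 for RPS27A, −0.092 and 0.31 for RPS9, −0.26 and 0.10 for RPL8, −0.17 and 0.15 for RPS4X and −0.079 and 0.39 for RPS19.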

Other observations

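Genes described as ribosomal protein S6 kinases were left out of the ribosomal protein genes. Their values are given here as found, chosen after the data were seen. The name does not say that each of them acts on RPS6. Of 10 genes described as ribosomal protein S6 kinases, 4 were higher, 1 was lower and 5 were not called by edgeR, where 24.8% of all genes were higher and 22.9% lower. With any 1 control or CD replicate 2 left out, 2 were higher (RPS6KA6 and RPS6KC1), and without CD replicate 3, 5 were. RPS6KL1 was called higher over all 6 libraries but in 1 of the 6 fits that leave out a library, and RPS6KA6 rests on 5 to 16 reads a library. RPS6KA4, a kinase that acts on chromatin and CREB after stress or mitogens, had 235, 233 and 273 CPM in control and 86.4, 99.6 and 86.9 CPM in CD (−1.44 ± 0.12 SE, FDR 9.57e-06). RPS6KC1 had 10.96, 12.6 and 10.8 CPM in control and 41.3, 28.8 and 23.6 CPM in CD (1.45 ± 0.21 SE, FDR 3.6e-04). RPS6KB2 was not called (0.064, FDR 0.703). RPS6KA1 had 167, 153 and 168 CPM in control and 226, 231 and 186 CPM in CD (0.39, FDR 0.0207), and it was not called without any 1 of the controls or without CD replicate 2 (FDR 0.0593 to 0.106).

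Among the mitochondrial ribosomal proteins, MRPL12, which also binds the mitochondrial RNA polymerase, had 420, 434 and 424 CPM in control and 151, 175 and 237 CPM in CD (−1.18 ± 0.16 SE, FDR 2.18e-04). MRPS25 (−0.996, FDR 9.54e-04), MRPL27 (−0.87, FDR 0.00286), MRPS11 (−0.79, FDR 8.48e-04) and MRPS2 (−0.78, FDR 4.14e-04) were also lower, and MRPL39 (0.68, FDR 0.0263) and MRPS21 (0.44, FDR 0.0318) were higher. For each of these 7 genes the control and CD libraries did not overlap, and CD replicate 3 was the highest of the CD libraries. MRPS21 was called in 1 of the 6 fits that leave out a library, the one without CD replicate 1, and its log2 fold change without CD replicate 3 was 0.26 (FDR 0.0607). MRPL39 was 0.36 without CD replicate 3 (FDR 0.0430), and it was not called without control replicate 1 (FDR 0.0923) or 3 (FDR 0.104).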
